A study of Mus musculus with 8 samples.

Results

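The genes described here are 35 genes of fatty acid oxidation, ketone body metabolism and the transcription factor PPARA, chosen by symbol from the 17164 genes of one expression table of mouse liver. All 35 were found under their symbol, and all 35 reached an FPKM (read level per gene length and library depth) of at least 1 in at least 2 libraries, as did 11606 genes in all. Livers came from male C57BL/6 mice in 4 groups of 6, and 2 livers picked at random from each group were sequenced, which gave 8 libraries. Model mice were injected in the abdomen with 0.67% diethylnitrosamine (DEN) when 2 weeks old, and from 8 weeks on, 2 times a week, with 20% carbon tetrachloride (CCl4), dissolved in olive oil. DWYG-M mice received the same agents, and the herbal preparation Diwu Yanggan (DWYG) was added at the age of 17 weeks, at 1 clinical equivalent dose. DWYG-H mice received the same agents with DWYG at 2 multiples of that dose. Control mice had a saline injection where the others had DEN, and no olive oil injection is named for them. Livers were taken at 22 weeks, and neither feeding state nor hour of sacrifice, nor whether tumour nodules were sampled, is given in the sources used here. DEN is activated by hepatocytes into a DNA-damaging carcinogen, and repeated CCl4 injures the pericentral liver, so the model combines tumour initiation with chronic injury and scarring.

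Fatty acids are burned mainly in mitochondria. An acyl-CoA synthetase activates the acid, the carnitine shuttle carries it across the inner membrane, and repeated rounds of dehydrogenation, hydration, a further dehydrogenation and thiolysis release acetyl-CoA, while the electron transfer flavoprotein passes electrons to the respiratory chain. Peroxisomes shorten very long and branched chains by a parallel route, and auxiliary enzymes rearrange double bonds so that unsaturated chains can pass through. In the fasted liver much of the acetyl-CoA becomes ketone bodies, and PPARA, a nuclear receptor that binds fatty acids, switches on many genes of these routes together with its coactivator PGC-1alpha.

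The bases in front of a few members are shown because these genes are often described as one PPARA programme and their start regions differ. The windows are the 250 bases before the annotated start in RefSeq (GRCm38.p6), read on the gene's own strand, and 30 of the 35 members had a window. Capitals mark AGGTCA, the half-site of nuclear receptors, or GGGCGG, the GC box, on either strand (TGACCT and CCGCCC on the other strand). Hadhb (chr5:30155003-30155252, plus strand) encodes a subunit of the mitochondrial trifunctional protein, and its window lies between its own start and that of Hadha, the gene of the other subunit, which is read in the opposite direction. The 2 start sites lie 273 bases apart, and the 2 upstream windows share 228 bases.
Hadhb: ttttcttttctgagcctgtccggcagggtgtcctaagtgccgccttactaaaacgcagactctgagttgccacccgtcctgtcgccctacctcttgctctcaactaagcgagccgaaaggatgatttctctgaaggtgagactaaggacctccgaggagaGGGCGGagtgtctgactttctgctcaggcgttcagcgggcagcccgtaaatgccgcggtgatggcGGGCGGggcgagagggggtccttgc
Acsl1 (chr8:46470787-46471036, plus strand) encodes the main long-chain acyl-CoA synthetase of liver, and its first listed window holds 4 GC boxes and no half-site.
Acsl1: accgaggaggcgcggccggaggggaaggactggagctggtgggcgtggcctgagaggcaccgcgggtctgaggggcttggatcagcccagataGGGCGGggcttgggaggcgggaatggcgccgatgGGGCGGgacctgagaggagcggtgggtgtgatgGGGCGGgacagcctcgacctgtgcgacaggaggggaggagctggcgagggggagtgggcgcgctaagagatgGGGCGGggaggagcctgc
Cpt1a (chr19:3323051-3323300, plus strand), the liver form of the outer carnitine transferase, has 1 half-site, at position −94 from the start, and 2 GC boxes.
Cpt1a: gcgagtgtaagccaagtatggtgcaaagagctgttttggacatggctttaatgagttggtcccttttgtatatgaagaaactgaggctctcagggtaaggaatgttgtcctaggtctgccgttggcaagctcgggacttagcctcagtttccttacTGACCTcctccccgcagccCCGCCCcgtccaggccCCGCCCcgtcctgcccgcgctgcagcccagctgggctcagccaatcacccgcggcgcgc
Acadvl (chr11:70015429-70015678, minus strand), the very long-chain acyl-CoA dehydrogenase, has 1 half-site at −87.
Acadvl: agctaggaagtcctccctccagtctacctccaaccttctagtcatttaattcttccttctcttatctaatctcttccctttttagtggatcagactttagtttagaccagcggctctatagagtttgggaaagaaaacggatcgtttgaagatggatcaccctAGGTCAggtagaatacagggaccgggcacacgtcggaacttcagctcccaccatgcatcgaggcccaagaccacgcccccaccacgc
Pdk4 (chr6:5496279-5496528, minus strand), a kinase that inactivates pyruvate dehydrogenase, and Acot2 (chr12:83987611-83987860, plus strand), a mitochondrial acyl-CoA thioesterase, have neither motif in these windows.
Pdk4: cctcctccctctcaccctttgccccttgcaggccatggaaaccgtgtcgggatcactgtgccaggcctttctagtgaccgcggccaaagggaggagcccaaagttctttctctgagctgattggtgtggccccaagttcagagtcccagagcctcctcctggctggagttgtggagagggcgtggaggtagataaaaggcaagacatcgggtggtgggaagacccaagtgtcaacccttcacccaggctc
Acot2: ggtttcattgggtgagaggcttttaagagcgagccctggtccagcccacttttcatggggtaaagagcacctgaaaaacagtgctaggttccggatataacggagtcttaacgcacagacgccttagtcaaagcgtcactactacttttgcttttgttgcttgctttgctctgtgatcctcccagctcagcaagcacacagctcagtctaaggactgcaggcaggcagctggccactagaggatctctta
A half-site was found in 5 of 30 members (16.7%: Acadm, Acadvl, Acot12, Cpt1a and Echs1) and in 15.8% of 27025 genes with a window. The direct repeat of 2 half-sites with 1 base between them, the classical PPARA element, was found in 0 of 30 members and in 0.0407% of the same 27025 genes. Only these exact letters were searched, and they are so rare that a count of 0 in 30 members does not show that the element is absent. Looser forms of it, and bases outside these windows, were not searched. GC boxes were found in 19 of 30 members (63.3%) and in 35.4% of the 27025 genes with a window. A gene was counted when any of its windows held the letters. Those 27025 genes were not limited to genes expressed in these livers, and the share over expressed genes was not taken. A match is a stretch of letters and not a measured binding site.

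Library depth lay between 17345627 and 19191382 estimated counts. The 14 hepatocyte markers in the table, such as Alb and Apoa1, summed to between 76290 and 119700 FPKM, so the tissue label matched its markers in every library. Markers of several other cell types were higher in livers given DEN and CCl4. Macrophage markers summed to 1013 and 705 FPKM in model livers, 530.3 and 549 in DWYG-M, 734 and 756 in DWYG-H, and 452 and 358 in control, and 9 of 14 were called higher in model than in control. Stellate cell and fibroblast markers summed to 439 and 424 FPKM in model livers, 270.1 and 317 in DWYG-M, 267 and 284 in DWYG-H, and 120.2 and 121 in control, with 9 of 12 called higher. Cholangiocyte markers summed to 431 and 616 FPKM in model livers, 343 and 263 in DWYG-M, 361 and 362 in DWYG-H, and 48.2 and 45.7 in control, with 6 of 7 tested called higher. Neutrophil markers were called higher for 3 of 4 tested, endothelial markers for 2 of 10, lymphocyte markers for 0 of 4 and hepatocyte markers for 0 of 14, of which 1, Cyp2e1, was called lower. Over all genes tested, 15.1% were called higher and 7.12% lower in model against control, so the endothelial count is near that share. In FPKM, the scale of the sums, 47.1% of all genes tested had both model livers above both control livers. No marker of these lists was at 0 in all 8 libraries. In whole liver, fewer hepatocytes and less RNA per hepatocyte cannot be told apart, and the part these other cells have in the results was not tested. Model replicate 2 also held transcripts of skeletal muscle (Ckm 38.8 FPKM, Acta1 79.8, Mb 40.6, Tnnt3 71.3, Myh4 4.20), which stood at or below 0.09 FPKM in the other 7 libraries, so the members' medians are also given without it. The 6 adipocyte markers summed to 8.85 FPKM in control replicate 1 and 5.02 in model replicate 2. In every other library they summed to 1.18 or less, and their part in the results was not tested.

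The comparison of model with control livers asks how DEN and CCl4 changed the genes of fat burning. Most members had a negative fold change in model livers: 13 of 35 (37.1%) fell and 2 (5.71%) rose at an adjusted p under 0.05 in edgeR's quasi-likelihood test, and 20 had no call. Over all 11606 genes the same test called 7.12% lower and 15.1% higher, or 22.2% in either direction, so lower calls made up a larger share of the members than of all genes and higher calls a smaller one. The median log2 fold change of the members was −0.66, against −0.01 over all genes, and 31 of 35 were negative, against 51.2% of all genes. In TMM-scaled CPM (library-depth-scaled counts after a step that sets the bulk of genes level between libraries), 27 members had both model livers below both control livers, which held for 29.2% of all genes, and 2 had both above, which held for 30.3% of all genes. Fold changes come from the TMM-scaled counts, so they can differ from the ratio of the FPKM values given for each liver. At an unadjusted p under 0.05 there were 27 members, beside 35.9% of all genes. The calls rest on few libraries: 5 members (3 higher, 2 lower) were called without model replicate 2, 8 without control replicate 1, 1 without control replicate 2, and 8 when only these 2 groups were fitted. On FPKM and TPM values, which are not corrected for composition, the median of all genes was shifted by 0.21 and 0.50, the median of the members was −0.41 and −0.08, and 29 and 22 of 35 were negative, with 4 called on either scale (2 higher, 2 lower). Over all genes, 2696 of 11606 were called on FPKM and 5448 on TPM, of which 91.7% and 97.5% were higher. On these scales a smaller share of the members than of all genes was therefore called. Relative to all genes, the members' median was −0.65 in edgeR, −0.62 on FPKM and −0.58 on TPM.

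**Figure D1:**
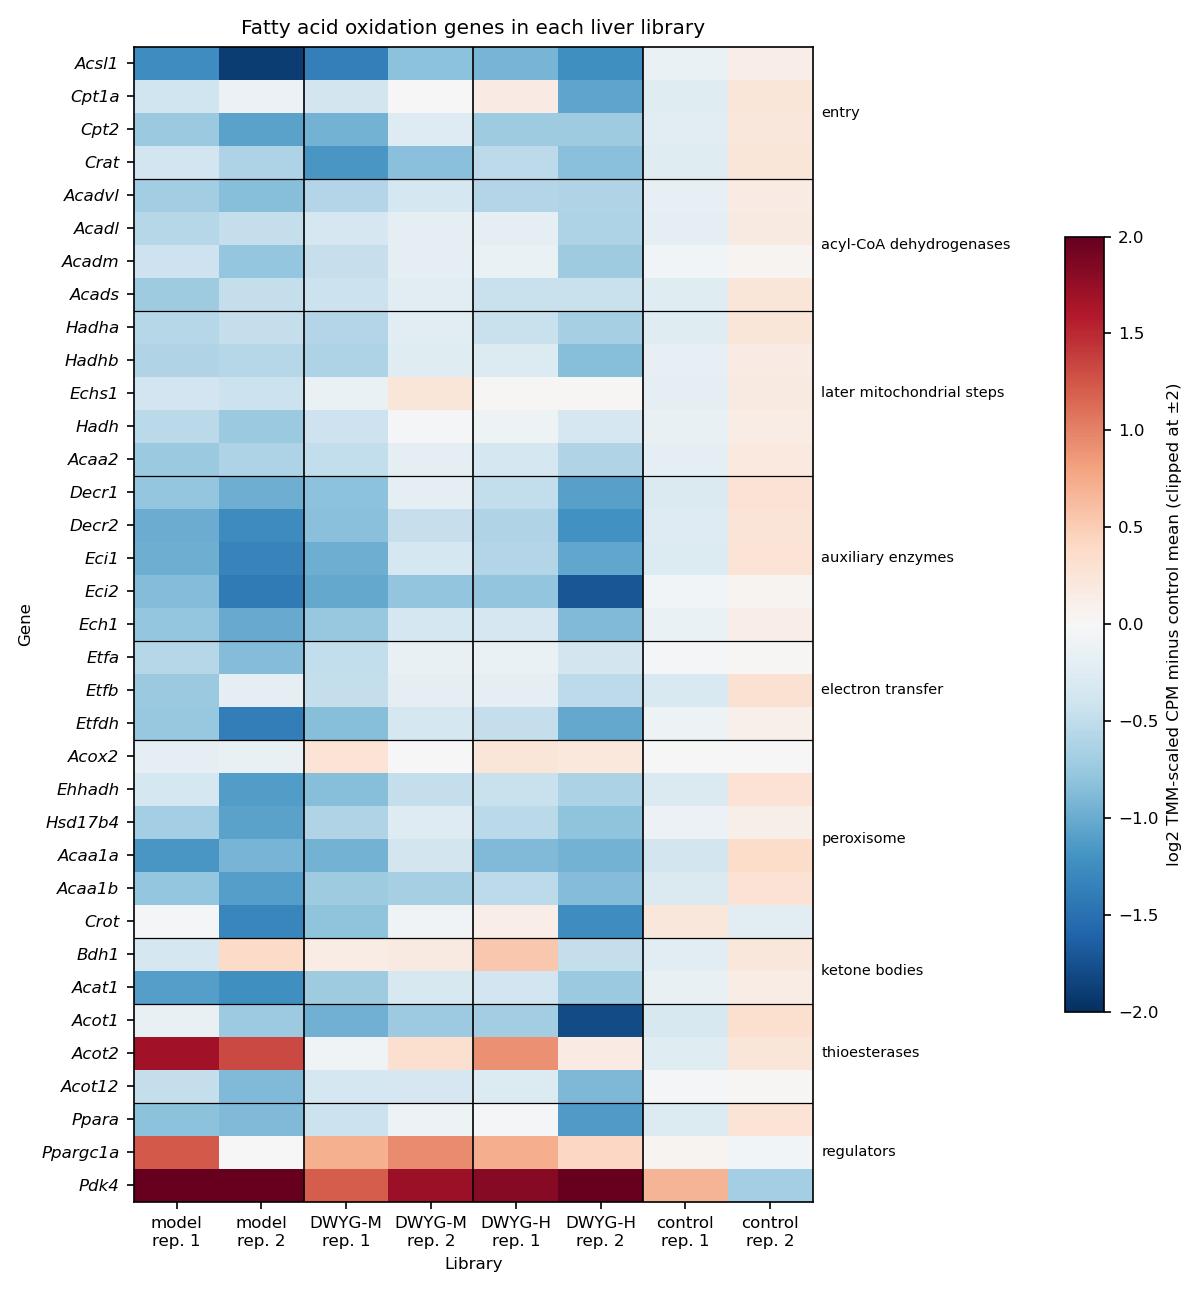
Log2 TMM-scaled CPM of the 35 genes in each library, minus the mean of the 2 control livers, on a colour scale clipped at ±2, with genes in rows grouped by role and libraries in columns. Most rows are blue in the model columns, where the median over the 35 genes was −0.61 in replicate 1 and −0.86 in replicate 2, and Acot2 and Pdk4 are red there.

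Activation and entry came first in the route and held the deepest fall. Acsl1 (Entrez 14081), which activates long-chain fatty acids, had 205 and 115 FPKM in model livers, 170.3 and 248 in DWYG-M livers, 228 and 189.6 in DWYG-H livers, and 359 and 398 in control livers. Both model livers lay below both control livers, and so did all 4 DWYG livers. It fell to 0.343 of the control level in model livers, a log2 fold change of −1.55 (SE 0.30, adjusted p = 0.0106). Cpt1a (Entrez 12894), which forms acylcarnitine on the outer membrane and is the main control point of the route, had 106 and 113 FPKM in model livers, 97.0 and 126 in DWYG-M livers, 139 and 61.1 in DWYG-H livers, and 95.4 and 123 in control livers. Its model livers lay within the range of the control livers in FPKM, and the log2 fold change was −0.27 (SE 0.38, adjusted p = 0.654), with a 95% interval of −1.15 to 0.61. Cpt2 (Entrez 12896), which hands the acyl group back to CoA inside the mitochondrion, had 51.7 and 36.2 FPKM in model livers, 40.6 and 65.3 in DWYG-M livers, 47.2 and 48.0 in DWYG-H livers, and 60.4 and 74.9 in control livers. All model values lay below the control values, and the log2 fold change of Cpt2 was −0.91 (SE 0.26, adjusted p = 0.0392). Crat (Entrez 12908), which moves acetyl and other short groups onto carnitine, had 22.4 and 16.8 FPKM in model livers, 11.4 and 14.5 in DWYG-M livers, 17.6 and 14.6 in DWYG-H livers, and 19.4 and 25.1 in control livers. In model against control it had no call (log2 fold change −0.51, SE 0.21, adjusted p = 0.129). Of these 4 genes, 2 fell and 2 had no call.

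The acyl-CoA dehydrogenases carry out the opening oxidation for chains of different length, and 1 of 4 fell. Acadvl (Entrez 11370), for very long chains, had 195 and 153 FPKM in model livers, 189.8 and 223 in DWYG-M livers, 188 and 189 in DWYG-H livers, and 229 and 263 in control livers. Its model livers lay below its control livers, and its log2 fold change was −0.79 (SE 0.19, adjusted p = 0.0246). The half-site in its window is printed above. The other 3 had no call: Acadl, for long chains, averaged 119 ± 6.63 FPKM in model livers and 142 ± 15.2 FPKM in control livers (SD, n = 2 each), a log2 fold change of −0.53 (SE 0.20, adjusted p = 0.1). Acadm, for medium chains, averaged 155 ± 41.8 FPKM in model livers and 191 ± 0.446 FPKM in control livers, with −0.59 (SE 0.24, adjusted p = 0.121). Acads, for short chains, averaged 87.1 ± 1.22 FPKM in model livers and 110.2 ± 19.4 FPKM in control livers, with −0.61 (SE 0.20, adjusted p = 0.063), and it passed in DESeq2 (adjusted p = 0.0313) and in edgeR with no filter (0.0494) or filterByExpr (0.0387). In all 4 genes both model livers lay below both control livers in FPKM as well as in TMM-scaled CPM.

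None of the 5 genes of the later mitochondrial steps was called with the filter used here, although 5 of 5 log2 fold changes were negative. Hadh and Acaa2 passed in DESeq2 (adjusted p = 0.02 for Hadh and 0.0111 for Acaa2) and in edgeR with its filterByExpr filter (0.0387 for Hadh and 0.043 for Acaa2). Hadh (Entrez 15107), the short-chain hydroxyacyl-CoA dehydrogenase, had the smallest p of the 5, with 175 and 133 FPKM in model livers, 171 and 225 in DWYG-M livers, 210.2 and 183 in DWYG-H livers, and 186 and 208 in control livers. Both model livers were lower than both control livers, and the log2 fold change was −0.64 (SE 0.21, adjusted p = 0.0635). Hadha and Hadhb, whose products form one complex and whose genes run back to back from one start region, gave log2 fold changes of −0.54 (SE 0.23, adjusted p = 0.129) for Hadha and −0.60 (SE 0.24, adjusted p = 0.117) for Hadhb. Hadha averaged 152 ± 7.83 FPKM in model livers and 182 ± 31.1 FPKM in control livers. Hadhb averaged 151 ± 12.04 FPKM in model livers and 189 ± 18.1 FPKM in control livers (SD, n = 2 each). Acaa2, the mitochondrial thiolase and the most abundant member in model livers at 596 FPKM, averaged 794 FPKM in control livers, a log2 fold change of −0.69 (SE 0.23, adjusted p = 0.0655). Echs1, the short-chain hydratase, stood at −0.42, and its FPKM values overlapped between the groups.

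The auxiliary enzymes for unsaturated chains were the role with the largest share of calls, with 4 of 5 lower and a median of −1.12. Decr2 (Entrez 26378), the peroxisomal dienoyl-CoA reductase, had 81.7 and 59.5 FPKM in model livers, 82.3 and 106 in DWYG-M livers, 94.7 and 63.6 in DWYG-H livers, and 109.6 and 145 in control livers. Its log2 fold change in model against control was −1.14 (SE 0.27, adjusted p = 0.0222). Eci1 (Entrez 13177), a mitochondrial enoyl-CoA isomerase, had 93.7 and 63.0 FPKM in model livers, 84.5 and 129.8 in DWYG-M livers, 109 and 81.0 in DWYG-H livers, and 124 and 165 in control livers. For both genes every model value lay below every control value, and Eci1 stood at −1.17 (SE 0.29, adjusted p = 0.0244). Eci2 (Entrez 23986), an isomerase of peroxisomes and mitochondria, had 123 and 77.0 FPKM in model livers, 103 and 121 in DWYG-M livers, 118 and 65.2 in DWYG-H livers, and 183 and 184 in control livers. It fell to 0.461 of the control level (log2 fold change −1.12, SE 0.31, adjusted p = 0.0375). Ech1 (Entrez 51798), a dienoyl-CoA isomerase, had 223 and 163 FPKM in model livers, 203 and 266 in DWYG-M livers, 268 and 186 in DWYG-H livers, and 282 and 307 in control livers. Its log2 change was −0.89 (SE 0.24, adjusted p = 0.034). In Eci2 the treated livers lay far below control in each of the 6 libraries, with DWYG-H replicate 2 the lowest. Decr1, the mitochondrial reductase, averaged 63.5 ± 12.3 FPKM in model livers and 96.6 ± 21.7 FPKM in control livers (SD, n = 2 each) and had no call (log2 fold change −0.90, SE 0.31, adjusted p = 0.0722). It passed in DESeq2 (adjusted p = 0.0179) and in edgeR with no filter (0.0477) or with filterByExpr (0.0485).

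The electron transfer flavoprotein takes electrons from the acyl-CoA dehydrogenases, and 2 of its 3 genes fell. Etfa (Entrez 110842), its alpha subunit, had 241 and 172 FPKM in model livers, 232 and 290.1 in DWYG-M livers, 290.3 and 253 in DWYG-H livers, and 286 and 271 in control livers. Its log2 fold change was −0.71 (SE 0.20, adjusted p = 0.0374). Etfdh (Entrez 66841), which passes the electrons on to ubiquinone, had 153 and 86.0 FPKM in model livers, 129 and 182 in DWYG-M livers, 165 and 116 in DWYG-H livers, and 195 and 206 in control livers. The 2 model livers differed widely in Etfdh, yet both lay below the control livers, and the change was −1.04 (SE 0.29, adjusted p = 0.0393). Etfb, the beta subunit, averaged 410.2 ± 67.9 FPKM in model livers and 478 ± 114 FPKM in control livers (SD, n = 2 each), with overlapping libraries and no call (log2 fold change −0.48, SE 0.28, adjusted p = 0.257).

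In the peroxisomal route 3 of 6 genes fell, at the hydratase and thiolase steps. Hsd17b4 (Entrez 15488), the D-bifunctional protein that hydrates and dehydrogenates straight and branched chains, had 182 and 121 FPKM in model livers, 172 and 218 in DWYG-M livers, 178 and 152 in DWYG-H livers, and 217 and 234 in control livers. Its log2 change was −0.86 (SE 0.23, adjusted p = 0.0313). The thiolases Acaa1a (Entrez 113868) and Acaa1b (Entrez 235674) share 21.6% and 22.6% of their transcripts' 100-base stretches with each other, so that some reads cannot be assigned to one of them. Acaa1a had 65.8 and 67.7 FPKM in model livers, 69.3 and 103 in DWYG-M livers, 71.3 and 70.0 in DWYG-H livers, and 92.9 and 142 in control livers. Its log2 fold change was −1.09 (SE 0.28, adjusted p = 0.0282). Acaa1b had 512 and 354 FPKM in model livers, 478 and 492 in DWYG-M livers, 539 and 435 in DWYG-H livers, and 574 and 792 in control livers. Its log2 change was −0.96 (SE 0.26, adjusted p = 0.0339). In all 3 genes the model values lay below the control values. The other 3 had no call: Ehhadh, the L-bifunctional protein, stood at −0.71 (SE 0.31, adjusted p = 0.137), and Acox2, an oxidase of branched chains and bile acid intermediates, at −0.16 (SE 0.16, adjusted p = 0.504). Crot, which makes medium-chain acylcarnitines for export from peroxisomes, had 571 and 207 FPKM in model livers, 301 and 499 in DWYG-M livers, 566 and 224 in DWYG-H livers, and 553 and 369 in control livers. This was the widest spread inside 3 of the 4 groups, and its log2 fold change was −0.55 (SE 0.54, adjusted p = 0.511).

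Ketone body genes split. Acat1 (Entrez 110446), the mitochondrial thiolase that makes and breaks acetoacetyl-CoA, had 96.5 and 77.3 FPKM in model livers, 113 and 149 in DWYG-M livers, 141 and 112 in DWYG-H livers, and 151 and 169 in control livers. Its values ran low in model livers, intermediate in all 4 DWYG livers and high in control livers, with no overlap between model and any other group, and it fell to 0.446 of the control level (log2 fold change −1.16, SE 0.22, adjusted p = 0.0105). Bdh1, which interconverts acetoacetate and 3-hydroxybutyrate, averaged 119 ± 31.1 FPKM in model livers and 96.2 ± 15.5 FPKM in control livers (SD, n = 2 each), with overlapping libraries and a log2 fold change of 0.05 (SE 0.37, adjusted p = 0.946). Its 95% interval was −0.80 to 0.89. The call for Acat1, like that for Acsl1, stood in 17 of 18 alternative ways of processing and was missed without control replicate 2 (adjusted p = 0.0659 and 0.0612).

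The 2 genes that rose stood at low levels. Acot2 (Entrez 171210), a mitochondrial thioesterase that splits long-chain acyl-CoA, had 4.73 and 3.22 FPKM in model livers, 1.23 and 1.63 in DWYG-M livers, 2.45 and 1.46 in DWYG-H livers, and 0.960 and 1.26 in control livers. Both model livers lay above all 6 others, and Acot2 rose 2.90-fold (log2 fold change 1.54, SE 0.34, adjusted p = 0.0182). Acot1, its cytosolic copy, shares 16.5% of its 100-base stretches with Acot2, which leaves the split of their reads uncertain. It averaged 18.7 ± 7.03 FPKM in model livers and 20.6 ± 5.28 FPKM in control livers (SD, n = 2 each) and had no call (log2 fold change −0.44, SE 0.37, adjusted p = 0.44). Acot12, a cytosolic acetyl-CoA hydrolase, stood at −0.66 (SE 0.23, adjusted p = 0.0726), and passed in DESeq2 and, with adjusted p = 0.0454, with filterByExpr. Pdk4 (Entrez 27273), which shuts carbohydrate carbon out of the mitochondrion by inactivating pyruvate dehydrogenase and is a known PPARA target, had 10.4 and 6.34 FPKM in model livers, 3.56 and 5.06 in DWYG-M livers, 5.41 and 7.62 in DWYG-H livers, and 2.20 and 0.770 in control livers. Every treated liver lay above both control livers, the control livers themselves differed more than for any other member, and Pdk4 rose 4.63-fold in model (log2 fold change 2.21, SE 0.42, adjusted p = 0.00987). The Pdk4 call stood in all 18 alternatives run, with adjusted p up to 0.0438, while its log2 fold change was 3.07 without control replicate 1 and 1.65 without control replicate 2. That for Acot2 was missed without control replicate 1 or 2 (adjusted p up to 0.103).

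Among the regulators, Ppara (Entrez 19013) had 22.6 and 19.0 FPKM in model livers, 26.7 and 33.5 in DWYG-M livers, 34.6 and 16.5 in DWYG-H livers, and 26.6 and 36.2 in control livers. Both model livers lay below both control livers, but Ppara had no call in edgeR (log2 fold change −0.87, SE 0.35, adjusted p = 0.112), with a 95% interval of −1.68 to −0.07. It passed in DESeq2 (adjusted p = 0.042) and in edgeR without DWYG-H replicate 1 or 2 (0.0389 and 0.0473). Ppargc1a (Entrez 19017), the coactivator PGC-1alpha, lay near the filter level of 1 FPKM, while its TMM-scaled CPM ran from 4.14 to 10.2. It had 1.88 and 0.70 FPKM in model livers, 1.17 and 1.41 in DWYG-M livers, 1.18 and 0.970 in DWYG-H livers, and 0.670 and 0.570 in control livers. Its 2 model livers stood apart from each other, and the log2 fold change was 0.76 (SE 0.38, adjusted p = 0.195). It was called higher only without model replicate 2 (1.25, adjusted p = 0.0191), among the 18 alternatives.

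**Figure D2:**
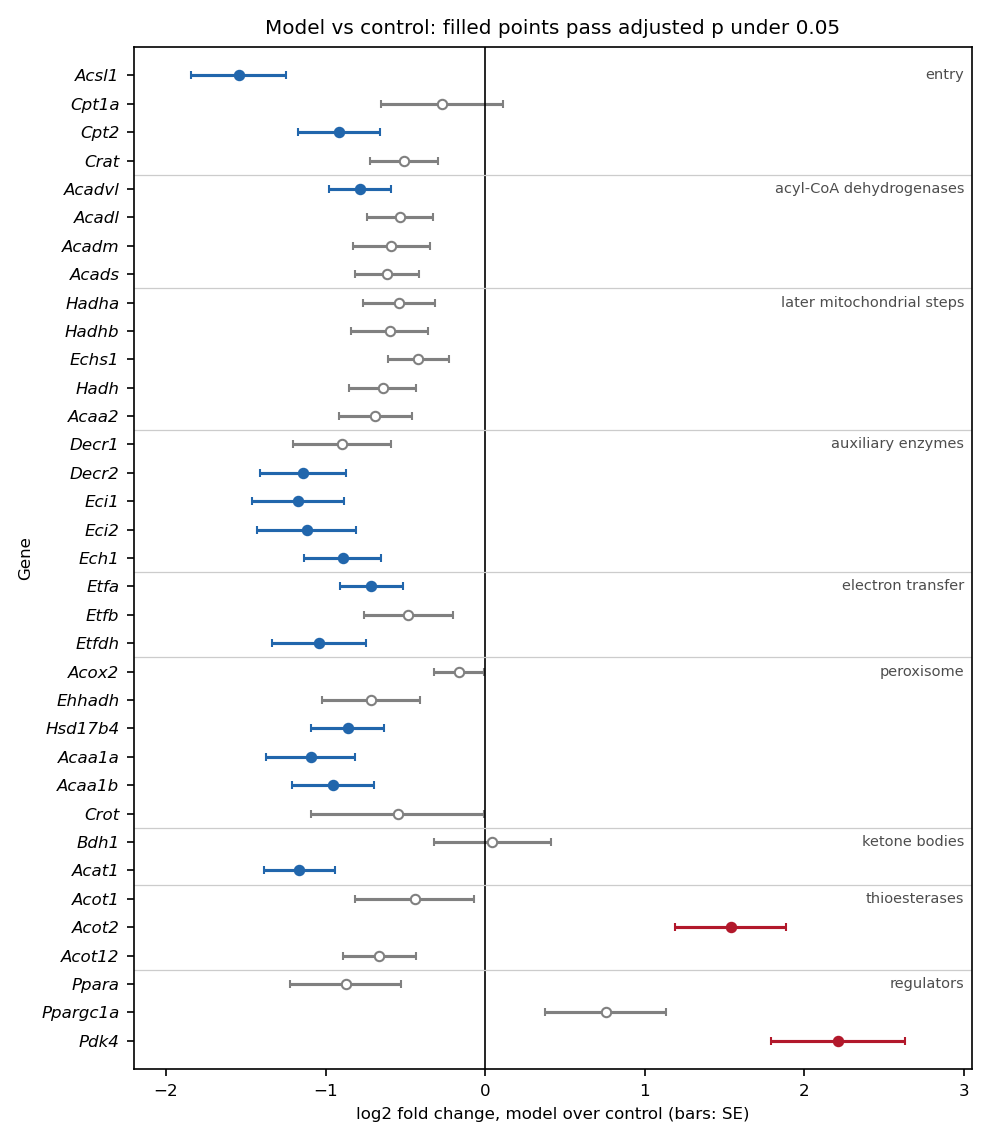
Log2 fold change, model over control, of each of the 35 genes in edgeR, with bars of 1 standard error, grouped by role. Filled points passed an adjusted p under 0.05: the 13 blue ones run from −1.55 (Acsl1) to −0.71 (Etfa), and the 2 red ones are Acot2 at 1.54 and Pdk4 at 2.21.

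Most of the 35 genes also differed in the same direction between the 2 livers of a group. In DWYG-M, 34 of 35 members were higher in replicate 2 than in replicate 1, with a median log2 difference (replicate 1 minus replicate 2) of −0.36. In DWYG-H, 33 of 35 were higher in replicate 1, with a median of 0.34. Control replicate 2 was the higher one for 31 of 35 (median −0.35), and model replicate 1 for 25 of 35 (median 0.24). Over all genes the share higher in replicate 1 was between 48.3% and 50.2% in the 4 groups, with medians between −0.01 and 0.00. The summed level of the 35 genes was 5436 and 4207 FPKM in model livers, 4992 and 6280 in DWYG-M, 6053 and 4610 in DWYG-H, and 6184 and 7105 in control. The model library with the lower sum was the one with muscle transcripts, and the summed levels of model, DWYG-M and DWYG-H overlapped. Crot had the largest difference between the livers of a group in model (1.27), DWYG-M (−0.73) and DWYG-H (1.37), and Pdk4 in control (1.35).

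**Figure D3:**
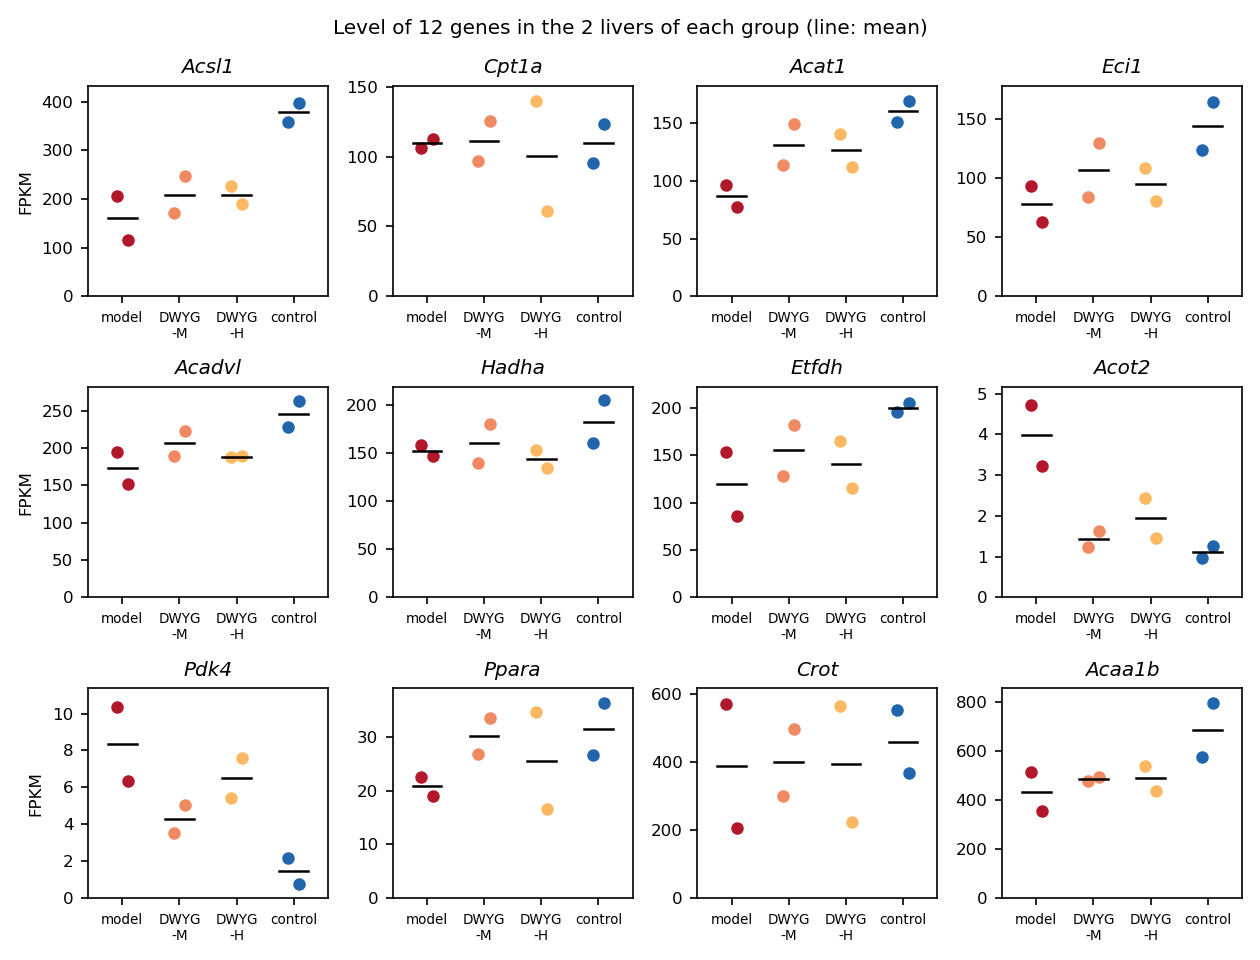
FPKM of 12 members in the 2 livers of each group, each panel with its own axis from 0, points for livers (replicate 1 left, replicate 2 right) and a line for the mean of 2. Acat1 is lowest in the model livers (96.5 and 77.3 FPKM), Acot2 is highest there (4.73 and 3.22 FPKM), and Crot spans 207 to 571 FPKM within the model group alone.

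Treatment with DWYG is compared with model at the same age to ask whether the capsules changed these genes. No member passed in edgeR in either dose group: 0 of 35 in DWYG-M, where 0.00862% of all genes (1 gene) was called, and 0 of 35 in DWYG-H, where 0% of all genes (0 genes) was called. With both doses together there were also 0 members, against 0.0345% of all genes. At an unadjusted p under 0.05 there were 4 members in DWYG-M, beside 12.6% of all genes, 4 in DWYG-H, beside 8.49%, and 6 with both, beside 13.9%; the members' counts of 4 of 35 are near the background. DESeq2 called 1 member, Acot2, in DWYG-M and with both doses, and limma on FPKM or TPM values called 0. The median log2 fold change of the members was 0.30 in DWYG-M against model (31 of 35 positive) and 0.15 in DWYG-H against model (27 positive), where all genes had −0.02 and −0.01. These 2 comparisons share the model livers, so the 2 values are not independent. For scale, the median difference between the 2 livers of one group was 0.24 in model, −0.36 in DWYG-M and 0.34 in DWYG-H. With 1 of the compared livers left out, the DWYG-M median ran from 0.13 (without DWYG-M replicate 2) to 0.46 (without model replicate 1). The DWYG-H median ran from −0.06 (without DWYG-H replicate 1) to 0.38 (without DWYG-H replicate 2), and was 0.35 without model replicate 1. Without model replicate 2, the library with muscle transcripts, the medians were 0.22 in DWYG-M and 0.08 in DWYG-H, with 0 members called in either.

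Acot2 had the smallest p of the members, with 1.23 and 1.63 FPKM in DWYG-M livers and 2.45 and 1.46 FPKM in DWYG-H livers, against 4.73 and 3.22 FPKM in model livers. All 4 DWYG livers lay below both model livers, and the log2 fold changes were −1.41 (SE 0.34, adjusted p = 0.228) in DWYG-M and −0.95 (SE 0.33, adjusted p = 0.489) in DWYG-H. DESeq2 gave an adjusted p of 0.0407 for DWYG-M. In TMM-scaled CPM, 1 member had all 4 DWYG livers below both model livers, and 8 had all 4 above. Over all genes these shares were 11.6% and 12.5%. In FPKM the members numbered 1 and 5, beside 16.2% and 7.05% of all genes. Acat1 had 113 and 149 FPKM in DWYG-M livers and 141 and 112 FPKM in DWYG-H livers, against 96.5 and 77.3 FPKM in model livers. All 4 DWYG livers were higher than both model livers, but the differences of 0.66 (SE 0.22, adjusted p = 0.306) in DWYG-M and 0.61 (SE 0.22, adjusted p = 0.52) in DWYG-H were not called. Another 4 members had an unadjusted p under 0.05 in 1 dose group each: Echs1 stood at 0.47 (SE 0.19, adjusted p = 0.377) in DWYG-M, and Etfa at 0.47 (SE 0.20, adjusted p = 0.578) in DWYG-H. Acox2 stood at 0.39 (SE 0.16, adjusted p = 0.571) in DWYG-H and Crat, in the other direction, at −0.51 (SE 0.22, adjusted p = 0.392) in DWYG-M. Acsl1, the deepest fall in the model, had 95% intervals of −0.20 to 1.15 in DWYG-M and −0.21 to 1.14 in DWYG-H, which hold 0 as well as 1 on the log2 scale. For Cpt1a the intervals were −0.80 to 0.96 in DWYG-M and −0.95 to 0.81 in DWYG-H. Ppara had intervals of −0.20 to 1.40 in DWYG-M and −0.43 to 1.17 in DWYG-H, and Pdk4 of −1.78 to 0.03 in DWYG-M and −1.17 to 0.61 in DWYG-H, all of which hold 0. Beside these values, no marker gene of the macrophage, stellate or cholangiocyte lists was called in either DWYG group against model, though the summed levels of the stellate and cholangiocyte lists were lower in all 4 DWYG livers than in both model livers. Of the cholangiocyte markers, Krt7 (unadjusted p = 0.00202 in DWYG-M and 0.00127 in DWYG-H), Krt19 (0.00224 and 0.000875) and Epcam (0.00127 and 0.000303) were lower in each DWYG liver than in both model livers, with adjusted p of 0.213 in DWYG-M and 0.25 in DWYG-H for all 3 in edgeR; the part of such cells in the members' values was not tested.

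**Figure D4:**
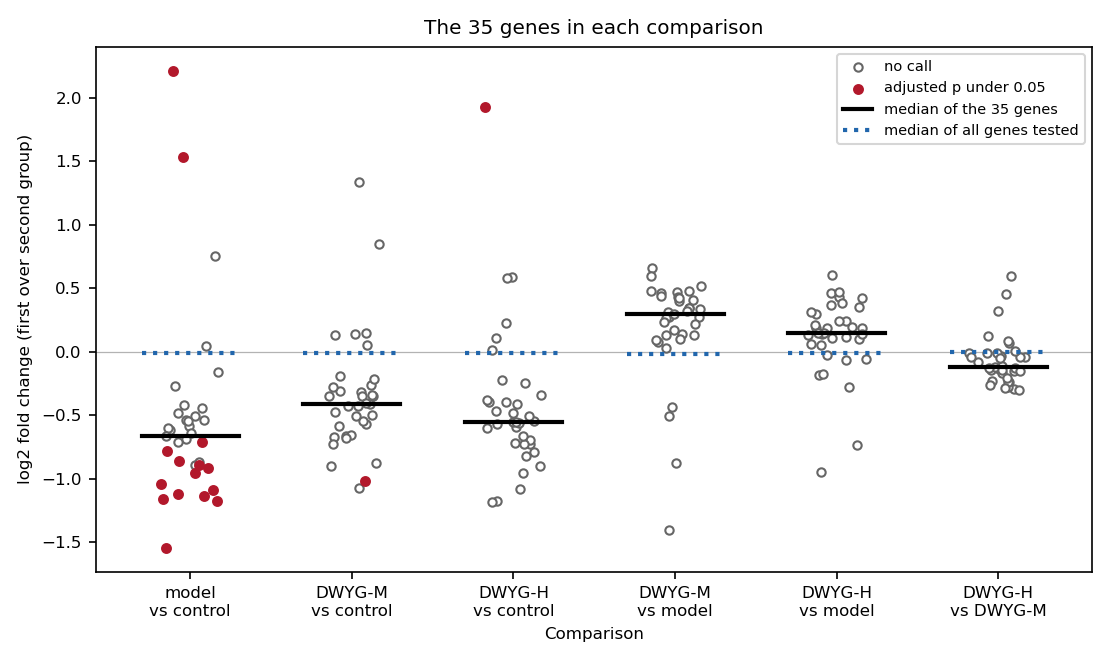
Log2 fold change of each of the 35 genes in 6 comparisons (first group over second), with filled points for genes at an adjusted p under 0.05, a black line for the median of the 35 and a dotted line for the median of all genes tested. The black line is at −0.66 for model, −0.41 for DWYG-M and −0.55 for DWYG-H against control, and at 0.30 for DWYG-M and 0.15 for DWYG-H against model; points of comparisons that share a group are not independent.

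Each DWYG group was also compared with control. In DWYG-M 1 member fell and 0 rose: Crat, at −1.02 (SE 0.22, adjusted p = 0.0387), where 4.95% of all genes were called and 0.603% were lower. Crat had 11.4 and 14.5 FPKM in DWYG-M livers, against 19.4 and 25.1 FPKM in control livers, and its call was missed in 10 of 18 alternatives, among them without any one liver of DWYG-M, DWYG-H or control (adjusted p up to 0.264). In DWYG-H 1 member rose and 0 fell: Pdk4, at 1.93 (SE 0.42, adjusted p = 0.0322), where 7.69% of all genes were called and 6.59% were higher. Pdk4 had 5.41 and 7.62 FPKM in DWYG-H livers, against 2.20 and 0.770 FPKM in control livers, and the call was missed without DWYG-H replicate 1 or 2 and without control replicate 2 (adjusted p up to 0.137). In DWYG-M it stood at 1.34 (SE 0.42, adjusted p = 0.127). The members' median was −0.41 in DWYG-M and −0.55 in DWYG-H against control, beside −0.01 over all genes in both, with 29 of 35 negative in each; on TPM the DWYG-M median was 0.04, which is −0.36 relative to all genes. Acsl1 stood at −1.07 (SE 0.30, adjusted p = 0.0875) in DWYG-M and −1.08 (SE 0.30, adjusted p = 0.0675) in DWYG-H, and Eci2 at −0.90 (SE 0.31, adjusted p = 0.161) in DWYG-M and −1.18 (SE 0.31, adjusted p = 0.0608) in DWYG-H. None of these 4 values passed in edgeR, and all 4 passed in DESeq2. In DWYG-M, DESeq2 called 5 members (1 higher, 4 lower), beside 1007 of 11606 genes, 83.9% of them higher. In DWYG-H, DESeq2 called 11 members (1 higher, 10 lower), beside 1385 of 11606 genes, 79% of them higher. That 13 members fell in model against control and 1 or 0 in the DWYG groups does not show that the groups differ, and the direct comparisons with model called none of these 13 in edgeR, DESeq2 or limma. Without model replicate 2, which enters the comparisons with control through the shared estimate of spread, the members' medians were −0.41 in DWYG-M and −0.55 in DWYG-H.

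The 2 doses did not differ detectably in any member. DWYG-H against DWYG-M gave 0 calls in edgeR, DESeq2 and limma among the 35, 0 members at an unadjusted p under 0.05, where 1.66% of all genes passed, and 0% of all genes called. The members' median was −0.12, and with 1 liver left out it was −0.24 without DWYG-M replicate 1, 0.06 without DWYG-M replicate 2, −0.32 without DWYG-H replicate 1 and 0.12 without DWYG-H replicate 2. The largest differences were Pdk4 at 0.59 (95% interval −0.31 to 1.5) and Acot2 at 0.46 (−0.34 to 1.25). For Ppara the interval was −1.03 to 0.57 and for Acsl1 −0.68 to 0.67, so with 2 livers a group, differences within those bounds are not excluded.

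Genes around the 35 were read from lists of the same routes, in model against control. For comparison with each list's counts, 7.12% of all genes tested were called lower and 15.1% higher. Of 24 tested genes of fatty acid uptake, activation and the carnitine shuttle, 7 fell and 2 rose, with a median of −0.75. Fabp1, the main fatty acid binding protein of hepatocytes, averaged 6123 FPKM in model livers and 16690 FPKM in control livers (log2 fold change −1.72, adjusted p = 0.0174). Slc27a2, a very long-chain transporter and synthetase, averaged 368 FPKM in model livers and 641 FPKM in control livers (log2 fold change −1.09, adjusted p = 0.0315). Acsm3 (−1.18) and Acsm5 (−1.17), medium-chain synthetases, fell as well. The 2 that rose are expressed widely outside hepatocytes: Cd36, a fatty acid receptor of macrophages and endothelium, averaged 59.7 FPKM in model livers and 13.2 FPKM in control livers (log2 fold change 1.87, adjusted p = 0.00319). Acsl4, an arachidonate-preferring synthetase, stood at 0.93. Cd36 was also called higher in DWYG-M (1.44) and DWYG-H (1.49) against control, where macrophage markers also summed higher; their part was not tested.

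Of 21 other genes of mitochondrial oxidation, 11 fell and 1 rose (median −0.72). Gcdh, of lysine and tryptophan breakdown, averaged 158 FPKM in model livers and 281 FPKM in control livers (log2 fold change −1.12, adjusted p = 0.0182). Acadsb (−1.23), Acad8 (−0.75), Hibadh (−0.93) and Pccb (−0.87), which degrade branched-chain amino acids and propionyl-CoA, fell too. Acot9, a mitochondrial thioesterase, rose as Acot2 did, by 1.48 (adjusted p = 0.00308). Of 37 other peroxisomal genes, 11 fell and 1 rose (median −0.59). Nudt7, a peroxisomal CoA hydrolase, averaged 216 FPKM in model livers and 838 FPKM in control livers (log2 fold change −2.26, adjusted p = 0.00661), and was also called lower in DWYG-H against control (−1.56). Phyh, which starts phytanic acid breakdown, averaged 877 FPKM in model livers and 1766 FPKM in control livers (log2 fold change −1.30, adjusted p = 0.0126). Scp2 (−1.23), a sterol carrier and thiolase, Pecr (−0.94), a trans-enoyl-CoA reductase, and the import factors Pex5 (−0.65) and Pex6 (−0.84) were lower.

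Of 10 tested genes of ketone body synthesis, use and transport, 2 fell and 2 rose. Among those that fell, Bdh2, a cytosolic dehydrogenase, averaged 8.35 FPKM in model livers and 12.5 FPKM in control livers (log2 fold change −0.84, adjusted p = 0.0476). Oxct1, the enzyme that uses ketone bodies in tissues outside the liver, averaged 4.60 FPKM in model livers and 1.26 FPKM in control livers (log2 fold change 1.60, adjusted p = 0.00463), and Slc16a7, a monocarboxylate transporter, stood at 0.81. Both were also higher in DWYG-H against control. Of 42 PPARA targets outside oxidation, 10 fell and 4 rose (median −0.54). Cyp4a12a, a male-biased omega-hydroxylase, averaged 34.0 FPKM in model livers and 144 FPKM in control livers (log2 fold change −2.35, adjusted p = 0.00049). Fitm1, a lipid droplet protein, averaged 1.99 FPKM in model livers and 28.3 FPKM in control livers (log2 fold change −4.08, adjusted p = 0.00101). Ephx2, an epoxide hydrolase of fatty acids, stood at −1.81. Lpl, the lipase that frees fatty acids from lipoproteins and is low in adult hepatocytes, averaged 46.3 FPKM in model livers and 6.38 FPKM in control livers (log2 fold change 2.62, adjusted p = 0.00233). Ucp2, a mitochondrial carrier abundant in macrophages, stood at 1.28.

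Of 33 PPAR receptors, partners and coregulators, 2 fell and 0 rose by edgeR (median −0.18). The lower count of this list is near the 7.12% over all genes, of which 15.1% were called higher. Sirt3, the mitochondrial deacetylase, averaged 34.4 FPKM in model livers and 57.4 FPKM in control livers (log2 fold change −1.02, adjusted p = 0.00905). Cebpa, a hepatocyte transcription factor, averaged 81.1 FPKM in model livers and 144 FPKM in control livers (log2 fold change −1.09, adjusted p = 0.0365). Ppard was called higher in DWYG-H against control (2.16) and Nr1d1, a clock repressor, lower (−2.28). Fatty acid and triglyceride synthesis had 1 lower and 2 higher calls of 20 (median −0.09): Scd2, a desaturase scarce in adult liver, averaged 63.3 FPKM in model livers and 1.47 FPKM in control livers (log2 fold change 5.20, adjusted p = 0.000972). All 38 nuclear-encoded genes of oxidative phosphorylation had a negative log2 fold change (median −0.60), and 20 fell, among them Ndufb3 (−0.89) and Sdha (−0.81). All 38 were also negative on FPKM, and 20 of 38 on TPM. On TPM the medians of the peroxisomal, ketone body and PPARA target lists turned to 0.02, 0.09 and 0.05, those of the coregulator and synthesis lists were 0.40 and 0.52, and relative to all genes the 8 medians ran from −0.66 to 0.02. Without control replicate 2 the lower calls numbered 1 of 24, 1 of 21 and 1 of 37 genes of uptake, mitochondrial and peroxisomal oxidation and 0 of 38 of oxidative phosphorylation, and the synthesis median turned to 0.28. Without model replicate 2 they numbered 0 of 24, 2 of 21, 2 of 37 and 2 of 38, without control replicate 1 they numbered 1, 2, 4 and 2 in the same 4 lists, and without model replicate 1 oxidative phosphorylation had 7. For the PPARA targets outside oxidation, 10 lower calls became 4 without model replicate 2, 5 without control replicate 1 and 3 without control replicate 2, and 4 higher calls became 2 without control replicate 1 or 2. The 2 lower calls of the ketone body list became 0 without model replicate 2 and 1 without model replicate 1 or control replicate 2, and the 2 of the coregulators became 3 without model replicate 1, 0 without control replicate 1 and 1 without model replicate 2 or control replicate 2. The 1 lower call of the synthesis list became 2 without model replicate 1 and 0 without control replicate 1 or 2, and its median was 0.05 without model replicate 1. Against model, 0 genes of these 8 lists were called in DWYG-M or in DWYG-H by edgeR. All 38 genes of oxidative phosphorylation had a positive log2 fold change in both, with medians of 0.34 in DWYG-M and 0.26 in DWYG-H. At an unadjusted p under 0.05 in edgeR there were 8 of them in DWYG-M, beside 12.6% of all genes. In DWYG-H there were 2, beside 8.49% of all genes, so the DWYG-H count is not above the background. Both comparisons share the model livers.

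**Figure D5:**
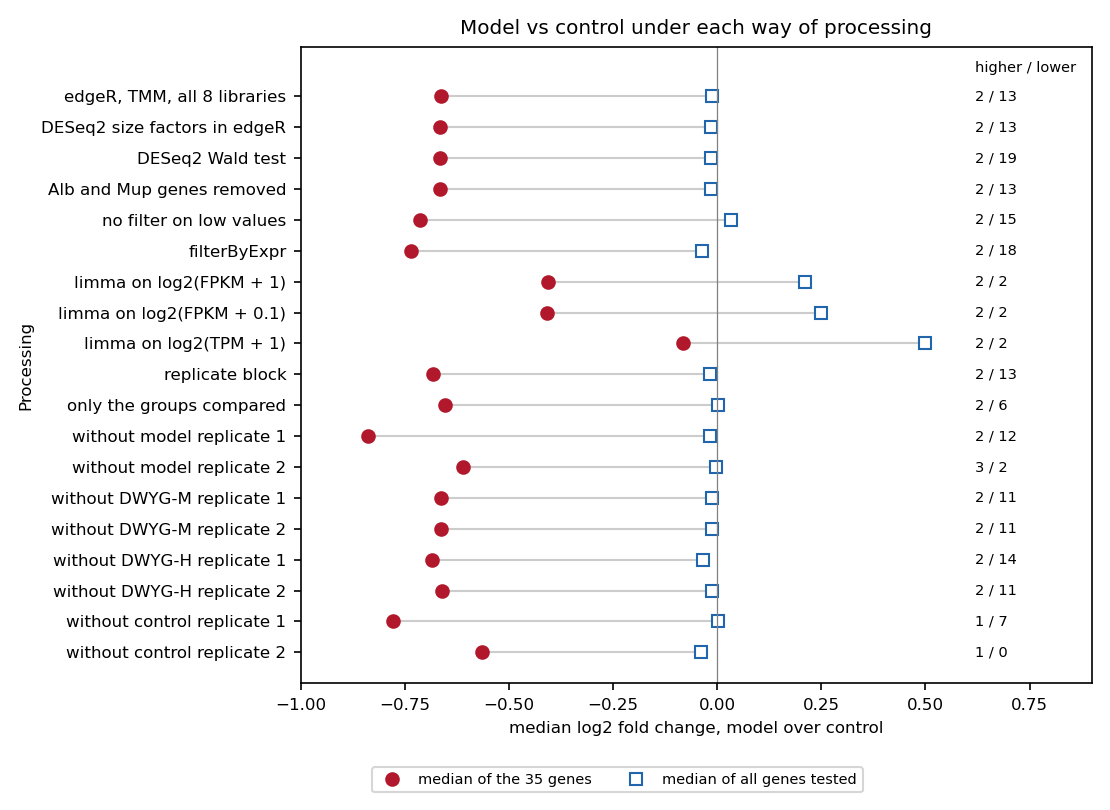
Median log2 fold change, model over control, of the 35 genes (circles) and of all genes tested (squares) under each way of processing, with the number of members called higher and lower at the right. The circles stay left of the squares in every line, from −0.84 without model replicate 1 to −0.08 on TPM values, while the number of lower calls runs from 0 to 19.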

How the data were processed

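RNA of 8 whole livers was sequenced with a SMART-Seq mRNA library kit, per the labels' protocols. The deposited table gives, for each library, estimated counts per gene, and 89.8% to 91.5% of these are whole numbers within 0.005. It also gives FPKM and TPM values as the authors made them. Reads were placed on GRCm39, per the submitters' processing notes; for the aligner, counter, annotation and strand setting no source used here gives a name. Another 24 columns (normalized counts and averages) were not used.

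The estimated counts were rounded and a gene entered the tests when 2 or more libraries reached an FPKM of 1 (11606 of 17164 genes). One model with 4 groups and TMM scaling was fitted with edgeR 4.0.16 (quasi-likelihood F test, R 4.3.3), and p-values were adjusted by Benjamini-Hochberg over all genes tested, with calls under 0.05. The residual degrees of freedom were 4. Alternatives used DESeq2 1.42.0, limma 3.58.1 on log2(FPKM + 1), log2(FPKM + 0.1) and log2(TPM + 1), other filters and scalings, and the removal of each library in turn. The constant added on those log2 scales shrinks the fold changes of low genes. These scales are also not corrected for composition, so a rise need not come out smaller than in edgeR. On TPM, Pdk4 stood at 2.30 and Acot2 at 1.55 in model against control. The code was tested on simulated counts.

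The 35 members and all other lists were chosen with earlier results of these data known, and a list's counts are therefore a description. Values by library are given for members called in any comparison, for the member with the smallest p in each role, and for Ppara, Ppargc1a and Cpt1a; from other lists, up to 6 called genes by smallest p. Depth was 17345627 to 19191382 estimated counts per library, and with 2 mice a group the spread between mice, not counting error, limits precision. Livers of a group come from separate mice. Promoter sequences come from RefSeq on GRCm38.p6, a build other than that of the files, and were matched by symbol. Some list genes are not reported here.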

Additional observations from a re-analysis of the deposited data

How the results depend on the processing

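In model against control, the count of members called was 15, and it came to 21 by DESeq2, 20 with filterByExpr and 17 with no filter, to 4 by limma on log2(FPKM + 1), 4 on log2(FPKM + 0.1) and 4 on log2(TPM + 1), to 8 when only the groups compared were fitted, and to between 1 and 16 with 1 library left out. The count of genes called, 2582, came to 5448 on TPM, 1628 with only the groups compared, and between 790 and 2712 with 1 library left out. The share of higher calls was 68.0% in edgeR, 91.7% on log2(FPKM + 1), 97.5% on TPM and 80.9% with only the groups compared. In DWYG-M against model, genes called numbered 206 by DESeq2, 2 on log2(FPKM + 1), 3 on log2(FPKM + 0.1), 2 on TPM, 2 with only the groups compared and 1 to 29 with 1 library left out, and members called numbered 1 by DESeq2. In DWYG-H against model, genes called numbered 120 by DESeq2, 4 with no filter, 3 on log2(FPKM + 1), 1 on TPM and 0 to 16 with 1 library left out. With both doses against model they numbered 321 by DESeq2, 30 with no filter, 9 on log2(FPKM + 1), 27 on TPM and 0 to 60 with 1 library left out, and members numbered 1 by DESeq2. In DWYG-M against control, genes called numbered 1007 by DESeq2, 1069 on log2(FPKM + 0.1), 2820 on TPM and 38 to 812 with 1 library left out; members numbered 5 by DESeq2, 0 on either FPKM scale, 2 on TPM, 2 with only the groups compared and 0 to 2 with 1 library left out. In DWYG-H against control, genes called numbered 1385 by DESeq2, 1431 on log2(FPKM + 0.1), 3369 on TPM and 77 to 1201 with 1 library left out; members numbered 11 by DESeq2, 2 with no filter, 2 on TPM, 2 with only the groups compared and 0 to 3 with 1 library left out. In DWYG-H against DWYG-M, genes called numbered 5 by DESeq2 and 0 to 2 with 1 library left out. The cause of these differences was not tested. No called value changed sign in any alternative run.

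Libraries of different groups share replicate numbers. The correlation of same-numbered deviations ran from −0.143 (model and DWYG-M) to 0.255 (DWYG-M and DWYG-H). With so few livers in each group, these values cannot decide whether the replicate numbers pair the libraries. With the replicate number as a block, 15 members and 2682 genes were called in model against control, with Etfdh lost and Acads gained, and 0 genes in DWYG-M, in DWYG-H and in both doses against model. Against control the block gave 0 members and 507 genes in DWYG-M, and 0 members and 856 genes in DWYG-H.

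Groups of 2 livers limit every value here, and calls in model against control rest on control replicate 2 more than on any other library, since 1 member was called without it. FPKM and TPM are shares of a library, and Alb and Mup transcripts took 8.62% and 11.1% of counts in model livers, against 22% and 20.6% in control livers. With these genes removed before TMM scaling in edgeR, 15 members were called, beside 2570 of 11585 genes. TMM already corrects for composition, and Alb and Mup genes were not removed from the FPKM or TPM values. Their part in the counts on those 2 scales was not tested.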
